A study of Mus musculus with 20 samples.

Results

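The response of the ventral prostate to testosterone was measured by bulk RNA sequencing in wild type (WT, C57BL/6J) male mice that had been orchidectomised, which removes the testes and with them most circulating androgen. All animals were castrated. The comparison set 5 libraries from WT mice given testosterone for 4 days against 5 libraries from WT mice given vehicle. A gene entered when it reached at least 10 normalised counts in at least 5 of these 10 libraries, and 14539 of the 43472 counted genes did so. The series also holds 5 libraries per treatment from ARNoC/Y males, which were castrated and treated in the same way and carry an androgen receptor whose amino-terminal and carboxy-terminal parts cannot interact, for 20 libraries in 4 groups. Age, dose and the interval from castration to treatment were not given in the sources used here. Just inside the limit stood Dpysl4, whose fifth-highest WT library had 10.2 normalised counts, and just outside it Scgb2b4-ps, at 9.98.

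The ventral lobe of the mouse prostate is a gland of tall luminal cells that make and secrete large amounts of a few proteins into the seminal fluid. Testosterone, and dihydrotestosterone made from it, bind the androgen receptor, a transcription factor that keeps these cells alive and drives their secretory genes. After castration luminal cells die or shrink and secretion stops, and renewed androgen rebuilds the gland.

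WT libraries held 8861646 to 16176067 counts. The labels do not say whether each library is a separate animal, so p-values here measure the spread between these libraries, which may in part be technical. All 20 pairs of libraries within groups differed by more than sampling noise (chi-square per degree of freedom 7.97 to 35.6). Of the 10 luminal markers of the ventral lobe 0 were undetected, and their summed level was 474672 to 594694 normalised counts with vehicle and 2177868 to 3433208 with testosterone. Much of that sum was the secretory gene Sbp, at a mean of 502370 with vehicle and 1687472 with testosterone. The 10 seminal vesicle markers summed to 0 to 57.8 normalised counts, with Svs3a at 0 in every library. Testosterone library 5 stood apart in urothelial markers, with a mean log2(normalised count + 1) of 7.58 against 4.34 to 5.47 in the other 9 libraries. Vehicle library 2 and testosterone library 2 had the lowest fibroblast score of their groups, at 9.05 and 7.96. Skeletal muscle markers were scored at 7.12 and 9.99 in vehicle libraries 1 and 5 and at 9.29 and 7.95 in testosterone libraries 2 and 5, against 2.08 to 5.33 in the other 6. Testosterone libraries 2 and 3 scored 2.37 and 2.61 for adipocytes, and the other 8 libraries 6.31 to 10.71. In whole tissue, fewer cells of a type and less RNA per cell cannot be told apart.

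Testosterone raised single genes of secreted proteins, among them Spink3, and most tested genes of the machinery that folds, glycosylates and exports such proteins. It lowered the carbonic anhydrase gene Car2, and more genes fell than rose among macrophage markers, chemokines, complement and the circadian clock. Of the 14539 genes tested, 5863 (40.3%) were called by edgeR's quasi-likelihood test at a Benjamini-Hochberg adjusted p under 0.05, of which 3048 (21.0%) rose and 2815 (19.4%) fell. A change of at least 2-fold was called upward in 700 genes (4.81%) and downward in 944 (6.49%). A change of at least 10-fold was called upward in 56 genes and downward in 25. Small changes were common among the calls, since 2854 were under 1.5-fold. The 5 libraries of one group all lay above the 5 of the other in 4045 genes (27.8%), and 3905 of these were called. The median log2 change over all tested genes was -0.02, and 90% of genes lay between -1.31 and 0.99.

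**Figure D1:**
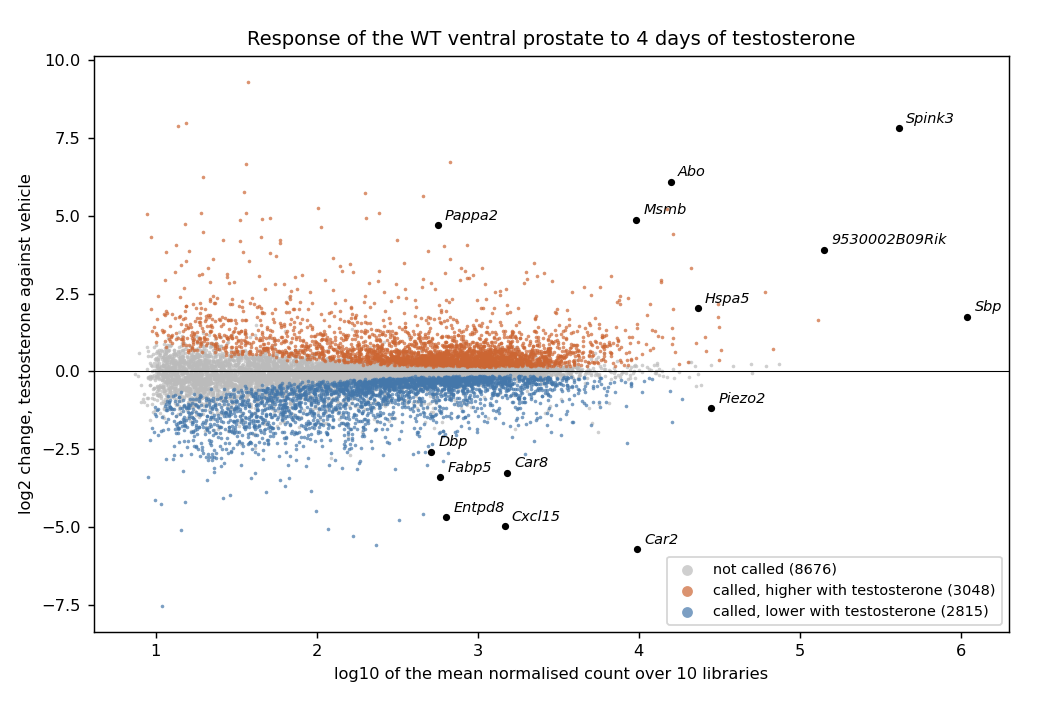
The log2 change between testosterone and vehicle (vertical axis) is plotted against the log10 of the mean normalised count over the 10 WT libraries (horizontal axis), with 1 point per tested gene and colour for the call. The 3048 rises and 2815 falls spread over all levels, and the named Spink3 and Car2 lie far from 0 at high counts.

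These counts are relative to the middle of the genes. A scaling to total counts, which lets the few very abundant secretory genes set the scale, moved the median of all genes to -0.44 and gave 1052 rises and 8950 falls. Below, a list whose majority direction turned under that scaling is named as such. Among protein-coding genes 21.8% rose and 20.8% fell, of 12929. Long noncoding genes rose more often than they fell, at 22.1% and 10.9% of 585, with a median log2 change of 0.08. Pseudogenes were called in few cases, with 7.27% rising and 5.84% falling of 770. The spread between libraries, as the common biological coefficient of variation, was 0.226 within the vehicle group and 0.200 within the testosterone group. On the leading principal component, which held 54.2% of the variance, all vehicle libraries were at -11.7 or below and all testosterone libraries at 14.0 or above. Vehicle library 2 and testosterone library 5 lay closest to each other on it.

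Of genes with a mean of at least 500 normalised counts and no overlap between groups, Spink3 rose most. It encodes a serine protease inhibitor of the seminal fluid. The vehicle libraries held 1797, 5519, 4043, 4439 and 2643 normalised counts of it, and the testosterone libraries 931334, 1136623, 761926, 615090 and 671296. Every testosterone library lay far above every vehicle library, and the change was 224-fold (log2 7.80 ± 0.45 SE, edgeR adjusted p = 6.93e-11).

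Abo, the glycosyltransferase of the A and B blood group antigens, had 515, 484, 471, 423 and 389.8 normalised counts with vehicle. With testosterone it had 31853, 34523, 31406, 28648 and 28920, a 68.2-fold rise (log2 6.09 ± 0.17 SE, edgeR adjusted p = 3.53e-15). Its libraries were close within each group, with a coefficient of variation of 7.74% under testosterone, so that the spread was small beside the change. Abo lies on chromosome 2 from 26842503 to 26864979, on the minus strand of the mouse build mm10.

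Secreted products followed with wider spreads than Abo. Wfdc3, a small protein with protease inhibitor domains, ran from 326 to 1316 normalised counts with vehicle and from 19135 to 39682 with testosterone, a 36.9-fold rise (edgeR adjusted p = 3.86e-08). The beta-defensin gene Defb50 rose 21.4-fold, from 754 to 2436 up to 15481 to 49670. Pappa2, a metalloprotease that cuts insulin-like growth factor binding proteins, rose 25.9-fold to a mean of 1083 ± 332 (SD, n = 5). H2-Q10, a secreted class I histocompatibility molecule, rose 18.5-fold, Apof, an apolipoprotein, 16.3-fold, and 9530002B09Rik 14.9-fold. Reads of H2-Q10 can be shared with other class I genes, so its value is uncertain. None of these groups of 5 overlapped. In the lists of such products rises were near or below the 21.0% of all genes. Of 24 secreted protease inhibitors 6 rose (25.0%) and 5 fell (20.8%), with a median log2 change of -0.44, and the majority turned under total-count scaling (6 and 10). Of 15 kallikreins and other secreted or surface proteases 2 rose (13.3%) and 7 fell (46.7%, median -0.40).

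The 12 largest rises at a mean of 500 normalised counts or more also held genes that encode no secreted protein. Phf19, an accessory subunit of Polycomb repressive complex 2, had 83.7 to 109 normalised counts with vehicle and 1158 to 2163 with testosterone, a 16.5-fold rise (log2 4.05 ± 0.15 SE, edgeR adjusted p = 1.29e-13). D030018L15Rik rose 106-fold, from 2.13 to 25.0 up to 1042 to 1494 normalised counts. Rapgef4os3, an antisense transcript by its name, rose 49.9-fold to 899 ± 286 (SD, n = 5). Whether counting used strand was not given in the sources used here, so reads of Rapgef4os3 and of its sense partner cannot be told apart.

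**Figure D2:**
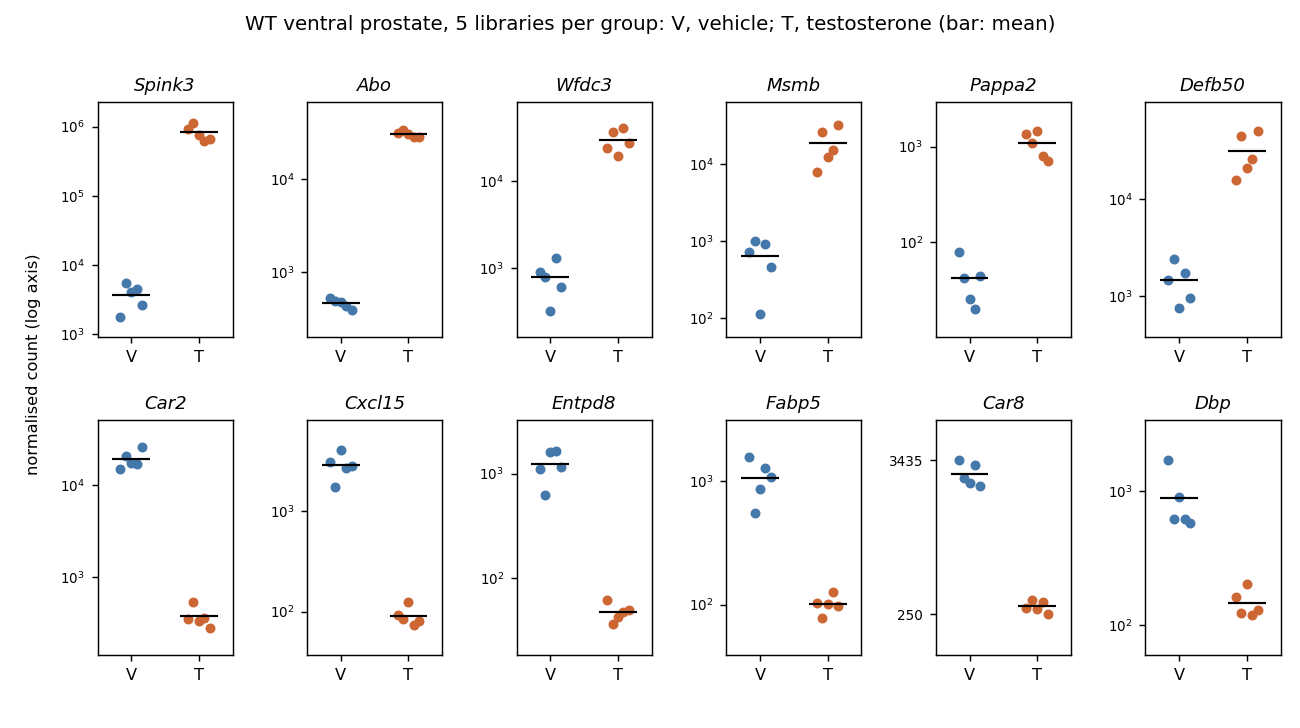
Normalised counts on a log axis are shown for 12 genes in the 5 vehicle (V) and 5 testosterone (T) libraries, 1 point per library with a bar at the mean. In all 12 genes the groups do not overlap: Spink3, Abo, Wfdc3, Msmb, Pappa2 and Defb50 are higher with testosterone, and Car2, Cxcl15, Entpd8, Fabp5, Car8 and Dbp are lower.

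The spread of 3 secretory genes, picked out after their values were seen, followed the same libraries. Msmb, or microseminoprotein beta, had 730.3, 1004, 113, 904 and 459 normalised counts with vehicle and 7853, 26255, 12146, 15327 and 31819 with testosterone (29.2-fold, edgeR adjusted p = 6.70e-07). Pbsn, or probasin, had 1777, 3192, 234, 1179 and 779 with vehicle and 3018, 14595, 7521, 4841 and 29794 with testosterone. Defb50 had 1460, 2436, 754, 1726 and 948, and then 15481, 44856, 20603, 25577 and 49670. In each of the 3 genes vehicle library 3 was lowest and vehicle library 2 highest, and testosterone libraries 5 and 2 were the highest pair. Pbsn was the only one of the 3 whose groups overlapped, and its 8.38-fold rise (log2 3.07) was 2.37 on the log2 scale without testosterone library 5. The coefficient of variation under testosterone was 91.2% for Pbsn, 53.6% for Msmb and 48.5% for Defb50, against 25.8% for Spink3. Msmb is also 1 of 10 markers of other prostate lobes, of which 3 rose and 2 fell of 7 tested (median -0.02). Their sum was 13987 to 21481 normalised counts with vehicle and 68673 to 97232 with testosterone, with Nkx2-3 at 0 in every library. Much of that sum was Spink5 (means 11304 and 50647) and Msmb (642 and 18680). The mean log2 score of the list differed by 0.14 and overlapped between groups (exact permutation p = 0.468). The part of other lobes in these values was not tested.

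A few genes came to hold a large part of each library. The 10 most abundant genes of a library took 8.83, 9.56, 9.11, 9.24 and 7.99% of counts with vehicle and 25.6, 28.1, 23.4, 21.6 and 21.4% with testosterone. The groups did not overlap (exact permutation test, two-sided, p = 0.00794, the smallest that 5 against 5 libraries allow; 0.0127 adjusted over 8 shares). Spink3 alone went from 0.0348 ± 0.0137% to 5.76 ± 1.12% of counts (SD, n = 5). Sbp, the spermine-binding protein, and its close relative Sbpl together went from 5.33 ± 0.399% to 13.2 ± 1.61% (n = 5). The reads of Sbp and Sbpl can be shared, so their split is uncertain. The number of genes that together hold 50% of counts fell from 1098 to 1211 with vehicle to 326 to 570 with testosterone (exact permutation p = 0.00794).

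Per length of transcript, Sbp was the most abundant gene in both groups, at 105071 ± 6269 TPM (a length-scaled share of the library) with vehicle and 188554 ± 14937 with testosterone (SD, n = 5). Spink3 moved from rank 39 to rank 2, at 1555 ± 605 and 184289 ± 25776 TPM, and Defb50 from rank 55 to rank 5. With vehicle the next genes after Sbp and Sbpl were the mitochondrial genes mt-Cytb, mt-Nd1 and mt-Co1. Since shares and TPM add up to a fixed total, a rise of the leading genes lowers all others. Cytosolic ribosomal proteins took 1.62 ± 0.131% of counts with vehicle and 1.14 ± 0.0792% with testosterone (n = 5, exact permutation p = 0.00794). The share of mitochondrially encoded genes was 2.27 ± 0.197% and 1.96 ± 0.207%, and the groups overlapped (n = 5, exact permutation p = 0.0635). The difference was -0.302 percentage points. It was -0.365 without testosterone library 2 and -0.348 without testosterone library 5, each with exact permutation p = 0.0476, not adjusted over the shares.

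**Figure D3:**
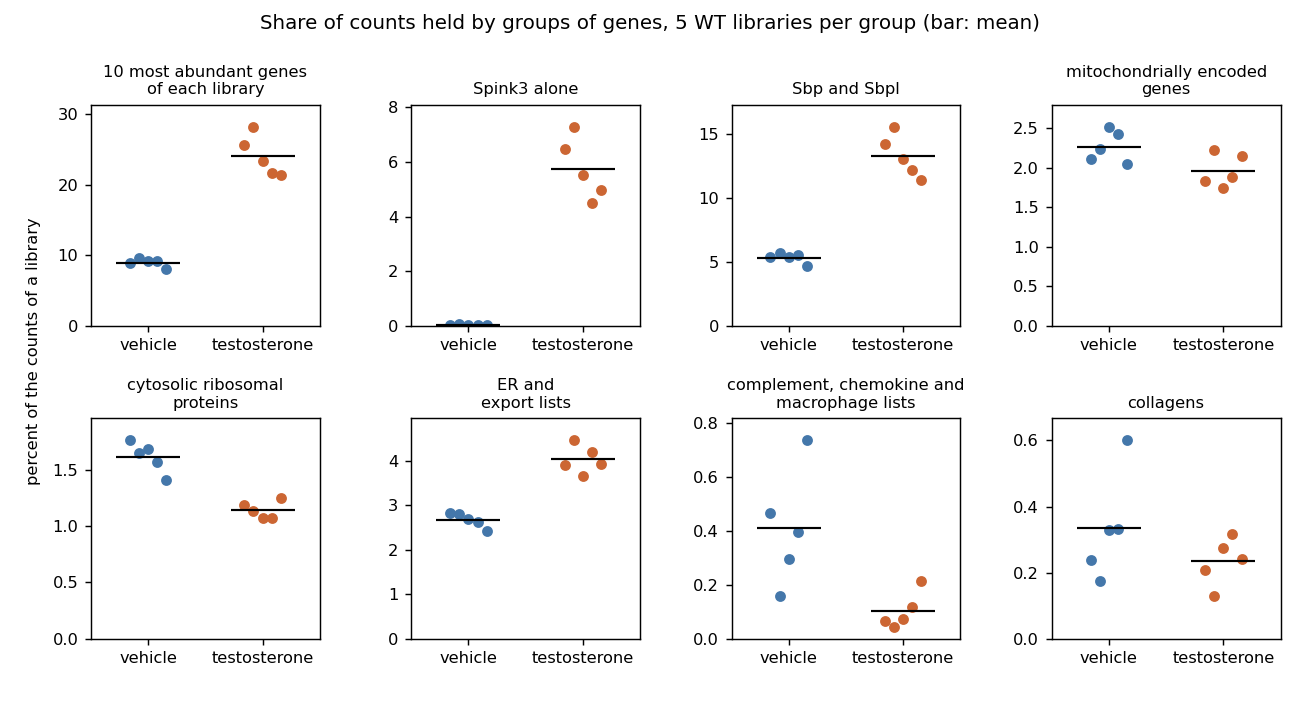
The percent of counts held by 8 groups of genes is shown for each WT library, with 1 point per library and a bar at the mean of 5, on axes that start at 0. The top 10 genes, Spink3, Sbp with Sbpl, and the ER (endoplasmic reticulum) and export lists are higher in every testosterone library, and ribosomal proteins are lower in every one.

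Most tested genes of the pathway by which a secreted protein enters the endoplasmic reticulum, folds, receives sugars and leaves for the Golgi rose. All 22 tested genes of signal peptide recognition and the translocon rose, with a median log2 change of 0.81, beside 21.0% of all genes. Among them Ssr4, a translocon-associated subunit, rose 3.20-fold and Sec11c, a signal peptidase subunit, 2.73-fold. Of 26 chaperones and disulfide enzymes of the endoplasmic reticulum 23 rose and 1 fell, with a median of 1.34. The exception was Qsox1, a sulfhydryl oxidase, which fell 1.86-fold (log2 -0.90 ± 0.17 SE, edgeR adjusted p = 2.64e-04). Transport by COPII and COPI coats, between the endoplasmic reticulum and the Golgi, gave 38 rises and 1 fall of 41, with a median of 0.70. Uso1, a tether for these vesicles, rose 2.89-fold, and Lman1, a receptor for glycoprotein cargo, 2.28-fold, while Sec24b, a COPII coat subunit, fell by 0.19 on the log2 scale. N-glycan assembly and transfer gave 24 rises and 0 falls of 32 (median 0.53), with Ostc at 2.49-fold and Stt3b, a catalytic subunit of the oligosaccharyltransferase, at 2.18-fold. Under total-count scaling these 4 lists kept more rises than falls, but with fewer rises. The translocon list gave 14 rises and 1 fall, chaperones 20 and 1, and coat transport 28 and 3. N-glycan assembly gave 10 and 5, with a median of 0.10.

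Hspa5, the main chaperone of the endoplasmic reticulum, had 9643, 10220, 9153, 9002 and 7473 normalised counts with vehicle. With testosterone it had 35424, 55056, 25016, 41171 and 29284, a 4.10-fold rise (log2 2.03 ± 0.20 SE, edgeR adjusted p = 1.60e-07). Testosterone library 2 was the highest and library 3 the lowest, and the groups did not overlap. Calr, a lectin chaperone, rose 3.99-fold, from 6035 to 7029 up to 20836 to 36053. Derl3, which helps to draw misfolded proteins out for degradation, rose 9.40-fold, from 101 to 245 up to 1000 to 2047. The list of the unfolded protein response and degradation gave 17 rises and 0 falls of 24, with a median of 0.47. Under total-count scaling this list gave 11 rises and 4 falls, with a median of 0.05. Members of the list did not move alike: Edem1 rose 2.52-fold, Edem2 2.47-fold, and Atf4, a transcription factor of the response, rose 1.32-fold (log2 0.40, but -0.02 under total-count scaling). Xbp1, another such factor, rose 1.27-fold with groups that overlapped. Its call was lost without testosterone library 2, 4 or 5 or vehicle library 4 or 5 (edgeR adjusted p = 0.0544 to 0.096), and its log2 change of 0.34 was -0.08 under total-count scaling. Ddit3, the factor that the response induces under severe stress, was at 173 ± 22.9 and 148 ± 17.1 normalised counts (SD, n = 5) and did not pass the test (log2 -0.22, edgeR adjusted p = 0.212).

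**Figure D4:**
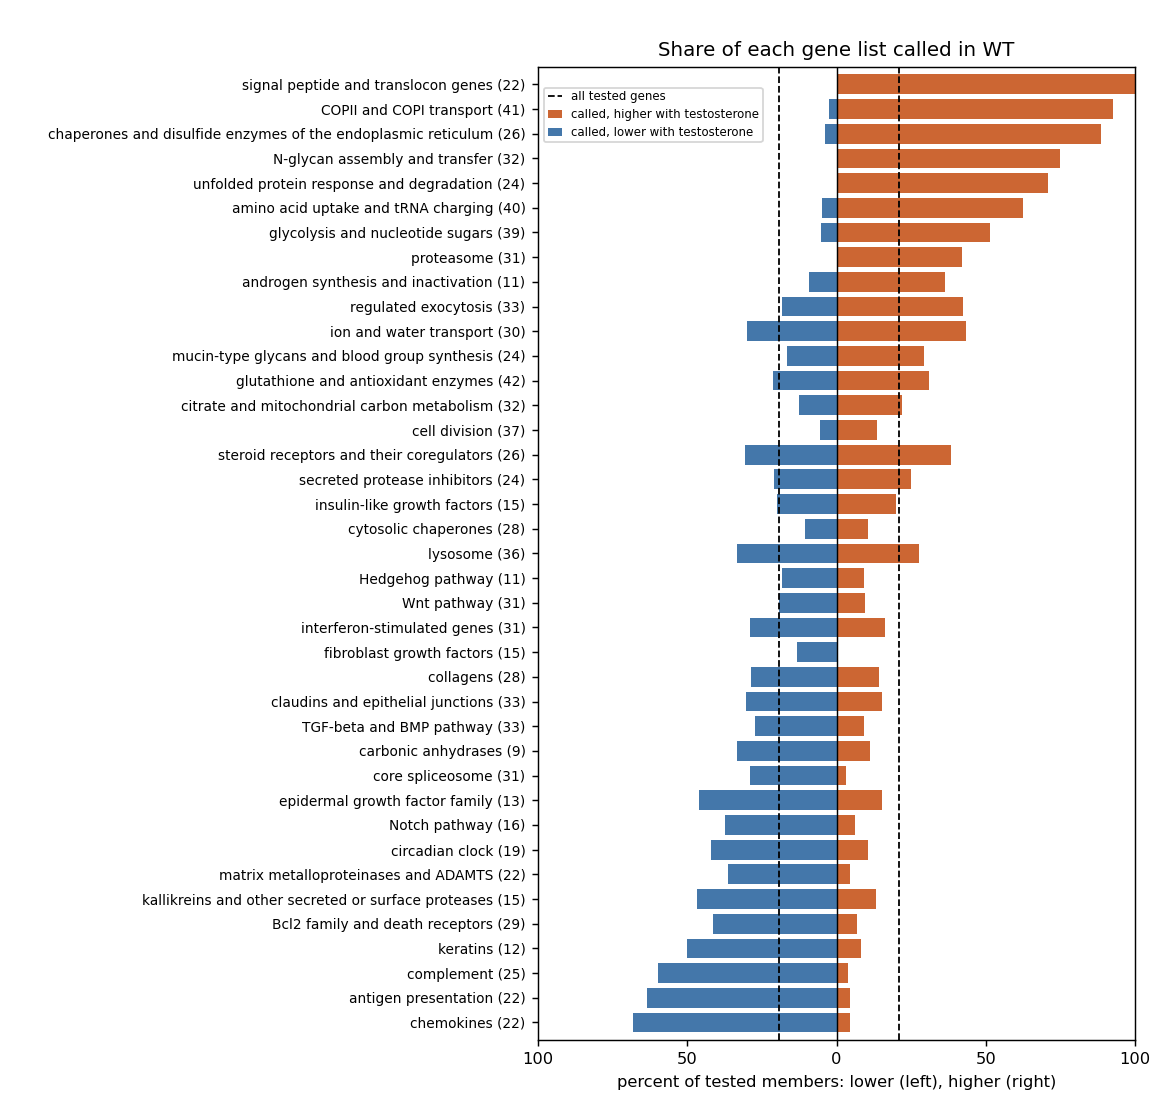
For each pathway list (number of tested members in parentheses), bars give the percent of members called higher (right) and lower (left) with testosterone, and dashed lines give the percent of all tested genes, 21.0 and 19.4. The 5 lists of the endoplasmic reticulum and export stand at the top, and chemokines, antigen presentation and complement at the bottom.

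Promoters of these 5 lists were searched for short motifs, because many of the genes moved together. The search was chosen after the values were seen. It used the 250 bases before the start of each gene in a RefSeq table of the build GRCm38.p6, on both strands, and 121 of the 145 tested list genes were matched. In all 7 motifs were searched. The ER stress response element, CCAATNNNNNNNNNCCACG, which is known as a site for the factors of the unfolded protein response, was in 10 of the 121 promoters (8.26%) and in 35 of all 27025 in the table (0.130%). The unfolded protein response element TGACGTGG was in 6.61% of the list promoters and 0.603% of all, and the amino acid response element TTGCATCA in 2.48% and 0.918%. The CCAAT box, CCAAT, whose letters begin the ER stress response element, was in 50.4% and 37.5%. The sterol regulatory element ATCACCCCAC and the full androgen response element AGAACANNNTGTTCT were in 0 of the list promoters, and in 0.0814% and 0.0111% of all. A single arm of the androgen response element, TGTTCT, was in 8.26% of the list promoters and 18.2% of all. The lists were chosen for functions that include the unfolded protein response. A higher share of its elements in them therefore follows in part from that choice. A match is a description and not a measured binding site.

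The 4 promoters below carry the ER stress response element and belong to genes of these lists that rose. Hsp90b1 among them rose less than Calr, Pdia6 and Dnajc3, whose matches follow. They are printed on the strand of the gene, with the fixed letters of each match in capitals, where ATTGG and CGTGG are the element on the opposite strand. Hspa5 is chr2:34771840-34772089 on the plus strand, Hsp90b1 chr10:86705445-86705694 on the minus strand, Derl3 chr10:75893148-75893397 on the plus strand and Creld2 chr15:88819396-88819645 on the plus strand.
Hspa5: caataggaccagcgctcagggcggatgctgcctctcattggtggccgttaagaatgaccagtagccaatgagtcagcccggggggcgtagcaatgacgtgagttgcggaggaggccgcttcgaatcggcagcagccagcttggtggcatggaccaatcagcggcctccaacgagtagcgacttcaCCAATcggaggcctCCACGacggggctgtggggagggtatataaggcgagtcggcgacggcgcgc
Hsp90b1: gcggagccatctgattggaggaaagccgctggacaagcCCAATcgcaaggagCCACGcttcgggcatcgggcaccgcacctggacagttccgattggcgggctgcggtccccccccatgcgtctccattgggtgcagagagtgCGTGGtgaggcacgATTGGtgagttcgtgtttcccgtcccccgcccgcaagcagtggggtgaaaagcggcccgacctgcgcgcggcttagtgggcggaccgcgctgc
Derl3: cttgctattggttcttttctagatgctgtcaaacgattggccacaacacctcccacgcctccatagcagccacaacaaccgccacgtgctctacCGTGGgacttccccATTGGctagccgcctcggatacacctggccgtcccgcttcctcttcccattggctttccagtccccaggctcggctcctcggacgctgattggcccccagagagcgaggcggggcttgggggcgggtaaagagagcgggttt
Creld2: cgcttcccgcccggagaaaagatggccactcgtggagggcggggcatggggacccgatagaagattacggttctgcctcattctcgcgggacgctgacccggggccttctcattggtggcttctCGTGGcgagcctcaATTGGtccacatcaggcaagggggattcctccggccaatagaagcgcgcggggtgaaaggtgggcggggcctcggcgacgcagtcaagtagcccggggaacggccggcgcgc
Hsp90b1, a chaperone, held 2 matches, which begin 212 and 107 bases before the start, and rose 2.62-fold. In Hspa5 the match spans 65 to 47 bases before the start. Creld2, a disulfide isomerase-like gene that rose 4.10-fold, shares its promoter with the divergent gene Alg12, an N-glycan mannosyltransferase that rose 1.70-fold, so these are 1 sequence and not a pair of independent matches.

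The other 5 matches are given as the 19 letters of the element itself, in its own direction, to show how far the middle letters differ.
Calr: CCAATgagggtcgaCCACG
Canx: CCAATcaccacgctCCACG
Dnajc3: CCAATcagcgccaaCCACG
Pdia6: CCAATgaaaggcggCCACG
Syvn1: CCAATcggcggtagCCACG
All 10 genes with the element rose, with a median log2 change of 1.67 (0.76 to 3.23). Of the 111 list genes without it 91 rose and 2 fell, with a median of 0.68 (-0.90 to 2.85). The 10 count Creld2 and Alg12 apart, although they share a sequence. These sets were not tested against each other, and the part of the element in the rises was not tested. Among the 10, the calnexin gene Canx rose 1.80-fold, the co-chaperone gene Dnajc3 2.87-fold, the disulfide isomerase gene Pdia6 3.50-fold and Syvn1, a ubiquitin ligase of the endoplasmic reticulum, 2.13-fold.

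The promoter of Pbsn is shown because androgen response there is textbook knowledge. It held 1 exact match to an arm of the androgen response element, 95 to 90 bases before the start, in capitals and on the opposite strand. This arm was in 18.2% of all promoters, and whether it is a site of the known response was not tested. Sites that differ from the searched letters are not marked. The window is chrX:77853501-77853750 on the minus strand.
Pbsn: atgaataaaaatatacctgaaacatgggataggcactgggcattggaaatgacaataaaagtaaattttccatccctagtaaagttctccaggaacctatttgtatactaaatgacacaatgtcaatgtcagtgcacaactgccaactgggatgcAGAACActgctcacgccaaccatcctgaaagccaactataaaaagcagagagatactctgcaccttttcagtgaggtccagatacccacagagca
Of the 12 largest rises 5, and of the 12 largest falls 7, had a promoter in the table, too few for a share of either set to be given.

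Lists of amino acid and sugar metabolism held more rises than falls at the scaling used here, beside 21.0% rises and 19.4% falls among all genes. Amino acid uptake and tRNA charging gave 25 rises and 2 falls of 40 (median 0.44), a majority that turned under total-count scaling (8 rises and 9 falls). Mthfd2, an enzyme of mitochondrial folate metabolism, had 41.7 to 76.8 normalised counts with vehicle and 256 to 442 with testosterone (7.13-fold, edgeR adjusted p = 1.11e-10). Phgdh, the entry enzyme of serine synthesis, rose 3.01-fold. Slc7a2, a cationic amino acid transporter, fell 2.64-fold, with overlap between groups. Glycolysis and nucleotide sugars gave 20 rises and 2 falls of 39 (median 0.34), which also turned under total-count scaling (12 and 14), with the glucose transporter gene Slc2a12 at 3.22-fold and Mpi, which feeds mannose into glycans, at 2.22-fold. Ugdh, which makes UDP-glucuronate, fell 1.79-fold, also with overlap. Odc1, the entry enzyme of the polyamine synthesis for which prostate is known, rose 4.89-fold, from 283 to 421 up to 1520 to 1758. In the citrate list, which stands for a metabolite that prostate secretes, 7 rose (21.9%) and 4 fell (12.5%) of 32, beside 21.0% and 19.4% of all genes. That majority turned under total-count scaling (0 and 22), without testosterone library 5 (3 and 5) and without vehicle library 2 and testosterone library 2 (2 and 7).

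Ion and water transport genes were called in both directions. Of 30 tested 13 rose (43.3%) and 9 fell (30.0%), beside 21.0% and 19.4% of all genes, a majority that turned under total-count scaling (9 and 14). Fxyd3, a regulator of the sodium pump, rose 2.27-fold and the potassium channel gene Kcnk1 1.84-fold, and Slc4a7, a sodium bicarbonate transporter, fell 1.57-fold. In the exocytosis list 14 rose (42.4%) and 6 fell (18.2%, near the share of all genes) of 33, again with a turn under total-count scaling (9 and 14). Stx3, an apical membrane fusion protein, rose 2.41-fold. Cadps, which primes dense-core vesicles, fell from 913, 88.9, 149, 400.2 and 91.6 normalised counts to 6.16, 7.07, 14.0, 7.05 and 7.49. Vehicle library 1 was the highest, and without it the change of -5.30 on the log2 scale was -4.45. Syt10, a synaptotagmin, had 0 to 1.10 normalised counts per vehicle library and 26.2 to 94.9 per testosterone library.

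Car2, which interconverts carbon dioxide and bicarbonate, made the largest fall among well-expressed genes. Its vehicle libraries held 15068, 21001, 17216, 17069 and 25782 normalised counts and its testosterone libraries 351, 530.4, 329, 359 and 279.6. The lowest vehicle library lay far above the highest testosterone library, and the fall was 51.9-fold (log2 -5.70 ± 0.22 SE, edgeR adjusted p = 3.80e-13). Car8, a related protein without that activity, fell 9.55-fold, from 2217 to 3435 down to 249.6 to 318. Of the 9 tested carbonic anhydrase genes 3 fell (33.3%) and 1 rose (11.1%), beside 19.4% and 21.0% of all genes. The rise, of Car14 at 2.08-fold (edgeR adjusted p = 0.0251), was lost without testosterone library 3 or 4 or without vehicle library 2, 3 or 4, with edgeR adjusted p from 0.0572 to 0.105.

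Cxcl15, an epithelial chemokine, had 3039, 1732, 3999, 2636 and 2778 normalised counts with vehicle and 92.4, 83.7, 126, 74.0 and 81.5 with testosterone. This was a 31.3-fold fall (log2 -4.97 ± 0.36 SE, edgeR adjusted p = 2.22e-09), with no overlap. Entpd8, which splits extracellular nucleotides, fell 25.8-fold, from 621 to 1636 down to 36.5 to 61.6, and Fabp5, a fatty acid carrier, 10.5-fold, from 549 to 1568 down to 77.8 to 127. Serpinb1a, an inhibitor of neutrophil proteases, fell 7.43-fold and the adhesion molecule gene Chl1 8.80-fold. The falls of Chodl (6.34-fold), Pamr1 (6.12-fold) and Wscd1 (6.05-fold) were of like size. Txndc16, a thioredoxin-domain protein of the endoplasmic reticulum, went against most genes of that compartment. It had 875, 939.5, 839, 819 and 878 normalised counts with vehicle and 168, 172, 161, 184 and 174 with testosterone, a 5.03-fold fall (log2 -2.33 ± 0.10 SE, edgeR adjusted p = 1.09e-12) with little spread in either group.

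By the share of all counts, the 6 largest losses were of Piezo2, a mechanically gated channel, Car2, Tax1bp1, an autophagy receptor, Krt19, a keratin of simple epithelia, Eef2, an elongation factor, and Prdx6, an antioxidant enzyme. Piezo2 fell 2.26-fold, from 38982 ± 1737 to 17162 ± 3435 normalised counts (SD, n = 5). Tax1bp1 fell 3.06-fold, from 18327 to 36671 down to 6348 to 9616. Krt19 fell 1.86-fold, from 18563 to 30727 down to 10525 to 16333. Eef2 lost share (0.486 to 0.353%), while its normalised counts were 51589 ± 4807 and 49829 ± 2214 (n = 5) and did not pass the test (log2 -0.04, edgeR adjusted p = 0.735). Prdx6 was at 28012 ± 4402 and 20628 ± 4078 (n = 5), just short of the threshold (edgeR adjusted p = 0.0511), and was called by DESeq2 (0.0227) and limma-voom (0.0381).

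Of the 26 steroid receptors and coregulators 10 rose (38.5%) and 8 fell (30.8%), beside 21.0% and 19.4% of all genes, a majority that turned under total-count scaling (7 and 13). Esr1, the oestrogen receptor alpha gene, fell 1.77-fold, from 446 to 558 down to 263 to 314. Among those that rose were Fkbp5, a co-chaperone of steroid receptors, at 5.49-fold and Nrip1, a corepressor, at 3.91-fold. Hoxb13, a homeobox factor of the prostate, rose 1.96-fold, from 4557 to 5592 up to 7484 to 11571. Foxa1, the pioneer factor that opens sites for the androgen receptor, was at 5995 ± 594 and 6341 ± 473 (n = 5) and did not pass the test (log2 0.09, edgeR adjusted p = 0.438).

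Most growth factor pathways held more falls than rises, but not each had a share of falls above the 19.4% of all genes. The share was 19.4% in the Wnt pathway and 18.2% in the Hedgehog pathway (1 rise and 2 falls of 11). The Hedgehog rise, of Hhip, was lost without testosterone library 1, 3 or 4 or vehicle library 2, 3, 4 or 5. The fall of Ptch1 was lost without vehicle library 1 or 4. In fibroblast growth factors the share of falls was 13.3% (0 rises and 2 falls of 15). The epidermal growth factor family gave 2 rises and 6 falls (46.2%) of 13, with Egfr down 1.54-fold, its ligand gene Tgfa down 1.59-fold and Erbb4 up 1.44-fold. The TGF-beta and BMP pathway gave 3 rises and 9 falls (27.3%) of 33, or 14 falls without testosterone library 5. Within it Bmpr1b, a BMP receptor, rose from 890.4 to 1717 up to 5710 to 9276 normalised counts (6.53-fold, edgeR adjusted p = 3.71e-09). Inhbb, an activin subunit, fell 3.01-fold and Smad4, the shared signal carrier of the pathway, 2.07-fold. The Wnt pathway gave 3 rises and 6 falls (19.4%) of 31, with Lgr4, a receptor for R-spondins, down 1.84-fold, Fzd7 down 1.56-fold and Fzd6 up 1.51-fold. The Notch pathway gave 1 rise and 6 falls (37.5%) of 16, with the ligand gene Jag1 down 1.65-fold and the coactivator gene Maml2 down 2.64-fold. Its 1 rise, of Notch3 (1.32-fold), was lost in 8 of the 10 fits that left out a WT library. Insulin-like growth factors gave 3 and 3 of 15, with Igfbp3, a binding protein of these factors, down 3.89-fold. Its groups overlapped, at 239 to 1462 normalised counts with vehicle and 55.4 to 295 with testosterone. In the list of the Bcl2 family and death receptors 2 rose and 12 fell (41.4%) of 29 (1 and 12 without testosterone library 5), with Bcl2l2, which protects from cell death, up 1.82-fold, and Bcl2l11 and Tnfrsf1a, which promote it, down 1.35-fold and 1.44-fold. Clu, or clusterin, fell 1.97-fold, from 6774 to 10546 down to 3639 to 5238.

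Immune genes fell broadly. Of 22 chemokine genes 15 fell and 1 rose (median log2 change -1.68), of 25 complement genes 15 and 1 (-1.48) and of 22 antigen presentation genes 14 and 1 (-0.47), beside falls of 19.4% among all genes. Cxcl17, a mucosal chemokine, fell 4.31-fold, from 2199 to 3868 down to 523 to 733, and the chemokine gene Ccl25 rose 1.51-fold. C1qb, a complement subunit made by macrophages, had 1496, 579.5, 658, 1064 and 2098 normalised counts with vehicle and 236, 189, 318, 253 and 426 with testosterone (4.10-fold lower, edgeR adjusted p = 1.04e-04). B2m, the light chain of class I molecules, went the other way and rose 1.75-fold, from 3913 to 5121 up to 6390 to 9396, while the immunoproteasome genes Psmb8 and Psmb10 fell 1.68-fold and 1.65-fold. Mx1, an interferon-induced antiviral gene, rose 4.92-fold, from 40.6 to 58.9 up to 208 to 289, within a list of interferon-stimulated genes in which 5 rose and 9 fell of 31 (3 and 9 without vehicle library 2 and testosterone library 2).

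Markers of immune cells fell with these lists, beside falls of 19.4% among all genes. All 9 tested macrophage markers fell (median -2.04), and their sum was 2796 to 16699 normalised counts with vehicle and 1279 to 3270 with testosterone. Lyz2, the lysozyme of macrophages and neutrophils, fell 6.34-fold (log2 -2.66) with overlap between groups, or by 3.29 on the log2 scale without testosterone library 5. All 5 tested neutrophil markers fell, summing to 128 to 462 and 36.4 to 105, and 5 of 6 tested markers of T and NK cells fell, summing to 185 to 249 and 56.6 to 96.3. No marker of these 3 lists was at 0 in all libraries. The part of cell numbers in the falls of chemokine, complement and antigen presentation genes was not tested. Together the complement, chemokine and macrophage lists held 0.410 ± 0.214% of counts with vehicle and 0.102 ± 0.0674% with testosterone (n = 5, exact permutation p = 0.0159). Vehicle library 2, at 0.160%, was lower than testosterone library 5, at 0.213%, so the shares overlapped.

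Of 6 tested B and plasma cell markers 3 fell and 0 rose, or 2 and 0 without testosterone library 5. These were Igha and, named after their values were seen, Cd79b and Mzb1, and in each the groups overlapped. The values of immunoglobulin genes rested on single libraries. Igha had 3482 normalised counts in vehicle library 4 and 65.4 to 375 in the other 4, against 4.71 to 79.1 with testosterone, and its log2 change of -4.59 was -2.55 without that library. By limma-voom Igha was not called (adjusted p = 0.0847). Igkc and Ighm did not pass the test (log2 -1.86 and -1.66, edgeR adjusted p = 0.0690 and 0.125), with testosterone library 4 at 2336 and 8563, within the range with vehicle or above most of it. Without that library their changes were -3.02 and -3.11 (edgeR adjusted p = 0.00644 and 0.00591). With all libraries, limma-voom called both Igkc and Ighm, at log2 -2.57 each (adjusted p = 0.0193 and 0.0221). Both were also called under total-count scaling.

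The mean scores of fibroblast, smooth muscle and endothelial markers overlapped between groups. They differed by -1.32, 0.37 and -0.94 with testosterone (exact permutation p = 0.0635, 0.302 and 0.0635). Counts of calls below stand beside falls of 19.4% and rises of 21.0% among all genes. Of 10 fibroblast markers 4 fell (40.0%) and 0 rose, or 7 and 0 without testosterone library 5. Their sum was 10597 to 61844 with vehicle and 8166 to 27336 with testosterone. Col3a1, a fibrillar collagen, fell 3.29-fold (edgeR adjusted p = 0.0363), a call that was lost without vehicle library 3 or 5 or without testosterone library 1, 2 or 3, with edgeR adjusted p of 0.0505 to 0.157. Among 28 collagens 8 fell (28.6%) and 4 rose (14.3%), and the share of counts of the list overlapped between groups (exact permutation p = 0.246). Col7a1, of the anchoring fibrils under epithelia, rose 2.32-fold, from 288 to 393 up to 674 to 921. Of 10 smooth muscle markers 1 rose and 0 fell, or 0 and 0 without testosterone library 5, and this turned under total-count scaling (0 rises and 1 fall). Of 10 endothelial markers 4 fell (40.0%), 7 without testosterone library 5 and 2 without vehicle library 2 and testosterone library 2. Skeletal muscle and adipocyte lists gave 0 calls of 8 and of 9 by edgeR. Among matrix metalloproteinases and related enzymes 8 fell (36.4%) and 1 rose (4.55%) of 22. Mmp15, a membrane-bound enzyme, was down 2.50-fold from 2772 to 3976 to 1162 to 1499.

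**Figure D5:**
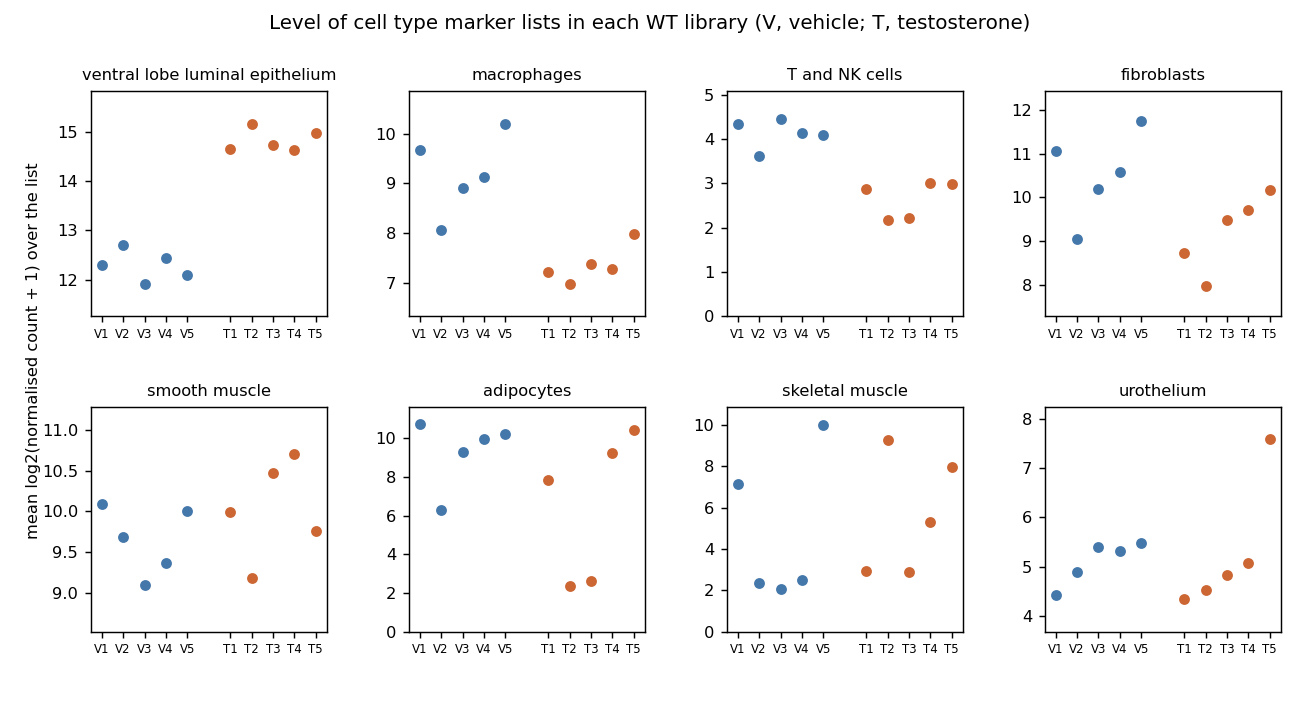
The mean log2(normalised count + 1) of 8 marker lists is plotted for each WT library, vehicle 1 to 5 (V) and testosterone 1 to 5 (T). Macrophage, T and NK cell scores are lower and luminal scores higher in every testosterone library, while fibroblasts, smooth muscle, adipocytes and skeletal muscle overlap, and testosterone library 5 stands alone in urothelial markers at 7.58. The luminal list includes Spink3, Abo, Msmb and Sbp, and 3 of its 10 markers fell.

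Epithelial markers fell in part, those of the ventral luminal cell among them. Of 10 ventral luminal markers 6 rose (60.0%) and 3 fell (30.0%), beside 21.0% and 19.4% of all genes. The 6 that rose were Abo, Spink3, Mme, Sbp, Msmb and Pbsn, most of which are reported above for their own rises. The 3 that fell, named after their values were seen, were Epcam, Cdh1 and Krt8. Of 10 basal markers 5 fell and 1 rose. Krt17, a basal keratin, fell 2.75-fold, and the hemidesmosome collagen gene Col17a1 1.63-fold with overlap between groups, while Krt15 was at 1320 ± 271 and 1231 ± 504 (n = 5). Of 10 markers of proximal and castration-resistant luminal cells 5 fell and 2 rose. Krt4 fell 1.87-fold (edgeR adjusted p = 0.0240, but 0.0528 to 0.0936 without vehicle library 3 or 4 or testosterone library 3), and the rises were Krt7, at 3.15-fold with no overlap, and Psca. Psca had 2.07, 5.49, 5.80, 8.34 and 4.26 normalised counts with vehicle and 77.0, 182, 24.8, 83.4 and 627 with testosterone, highest in the library with the high urothelial score, and its log2 change of 5.23 was 4.08 without that library. Upk1b, a uroplakin, fell 2.97-fold, from 2752 to 4233 down to 939 to 1600. The only urothelial marker that rose, Upk2, had 213 normalised counts in testosterone library 5 and 9.24 to 18.9 in the other 4, and its log2 change of 2.88 was 0.87 without library 5 (edgeR adjusted p = 0.484). The call was also lost without vehicle library 1, 3, 4 or 5 (edgeR adjusted p = 0.0628 to 0.0715).

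Of 19 circadian clock genes 8 fell (42.1%) and 2 rose (10.5%), beside 19.4% and 21.0% of all genes, and 9 were not called. Dbp, a transcription factor driven directly by the clock, had 1696, 614, 898, 624 and 574 normalised counts with vehicle and 163, 124, 202, 119.8 and 129 with testosterone (6.00-fold, log2 -2.58 ± 0.33 SE, edgeR adjusted p = 3.81e-06). Nr1d1, a repressor of the clock, fell 3.50-fold, the period genes Per3 and Per2 3.08-fold and 2.82-fold, Nr1d2 2.23-fold and Tef 1.91-fold. None of these 6 genes overlapped between groups, beside 27.8% of all genes without overlap. Per2, Nr1d2 and Tef among them were picked after their values were seen. Nfil3, which binds the same sites as Dbp and represses them, rose 3.70-fold, from 410.1 to 614 up to 1558 to 2110, and Cry1 1.55-fold. The central activator genes Arntl and Clock did not pass the test (log2 0.34 and -0.10, edgeR adjusted p = 0.343 and 0.600). The sources used here do not give the time of day at which tissue was taken, and its part in these values was not tested.

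A few cell division genes rose. Of 37 tested genes 5 rose (13.5%) and 2 fell (5.41%), both below the shares of all genes, and the majority turned under total-count scaling (2 and 7). Rrm2, a subunit of the enzyme that makes deoxynucleotides, rose 4.63-fold, from 36.2 to 64.6 up to 160.1 to 313, and E2f1, a factor of S phase entry, 4.01-fold, from 17.4 to 47.9 up to 92.8 to 159.8, with no overlap between groups in either gene. Mcm6, a subunit of the replicative helicase, fell 2.21-fold. Mki67 had 60.9, 48.3, 133, 88.9 and 129 normalised counts with vehicle and 81.6, 100.2, 551, 347 and 108 with testosterone, short of the threshold (log2 1.36, edgeR adjusted p = 0.105). Testosterone libraries 3 and 4 were the high pair, and the same pair had the highest mean level of the list, at 6.98 and 6.66 against 5.33 to 6.20 in the other 8 libraries. Protein breakdown by the proteasome gave 13 rises (41.9%, beside 21.0% of all genes) and 0 falls of 31. Sizes were small, such as 1.30-fold for Psmd1, and total-count scaling gave 0 rises and 22 falls. The proteasome list gave 8 rises without vehicle library 2 and testosterone library 2. The core spliceosome gave 1 rise and 9 falls (29.0%, beside 19.4% of all genes) of 31, with Snrpb2 down 1.35-fold.

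The ARNoC/Y libraries allow a test of whether the WT response differs from that in mice with the altered receptor. By edgeR's interaction test 0 of the 14539 genes (0%) were called, with 1264 at an unadjusted p under 0.05 and a smallest adjusted p of 0.0618. The count was 0 by limma-voom and 28 by DESeq2. A p above the threshold does not show that the responses were alike. Among the genes called in WT, the median absolute difference between the 2 responses was 0.17 on the log2 scale. The log2 changes in WT and ARNoC were 7.80 and 6.81 for Spink3, 6.09 and 5.56 for Abo, -5.70 and -6.24 for Car2, and -4.97 and -6.07 for Cxcl15. They were 2.03 and 1.87 for Hspa5, and -2.58 and -2.75 for Dbp. Piezo2 changed by -1.18 and -2.27 (edgeR adjusted p of the difference 0.335). Among named genes the widest gaps were in Psca, at 5.23 and 0.51, Upk2, at 2.88 and -1.42, Igha, at -4.59 and -1.66, and Mmp12, a macrophage elastase, at -3.48 and -0.64. None of these 4 differences passed the test (edgeR adjusted p = 0.401 to 0.584). The WT values of Psca and Upk2 were highest in testosterone library 5, and those of Igha in vehicle library 4. Mmp12 had 439.9 normalised counts in vehicle library 3 and 12.4 to 38.9 in the other vehicle libraries. Its WT log2 change was -1.37 without vehicle library 3, and limma-voom did not call it (adjusted p = 0.0593).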

How the data were processed

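Per the labels' protocols, RNA was taken from snap-frozen ventral prostate and made into Illumina TruSeq libraries. Per the submitters' processing notes, FastQC 0.11.7, HISAT2, SAMtools 1.5, HTSeq and DESeq2 were used with the mouse build mm10; the sources used here name no annotation, strand setting or filter. The authors deposited raw counts for 43472 gene symbols, normalised counts (the deposited signal, each count divided by a size factor, for 23221 genes) and the size factors, a deposited ratio per library. Normalised value times size factor gave whole counts for 100% of values within 1e-06.

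Counts of the 14539 genes with at least 10 normalised counts in 5 of the 10 WT libraries were scaled by TMM (trimmed mean of M-values) and fitted in edgeR 4.0.16 (R 4.3.3), with 1 mean per group over all 20 libraries, the quasi-likelihood F-test and Benjamini-Hochberg adjustment at 0.05 over all tested genes. The script was tested on simulated data. Shares were compared by two-sided exact permutation tests (5 libraries in each group). Alternatives were DESeq2 1.42.0, limma-voom (limma 3.58.1), other scalings and filters, the WT libraries alone and leaving out each library; leaving out both libraries low in fibroblast markers was added after the data were seen. Coordinates and exon lengths for TPM came from GENCODE M21 (the same build), which covered 98.5% of tested genes, 931 counted symbols being matched through a synonym.

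Members, lists and tests were chosen with earlier results of these data known. Named genes were: Fkbp5, Pbsn, Odc1, Clu, Car2 and Mki67; the 12 largest rises and falls with a mean of at least 500 and no overlap; the 6 largest gains and losses in share of counts; per pathway list the 2 called genes of smallest adjusted p in its main direction and 1 in the other; and up to 3 markers per cell type by level. Chosen after their values were seen were Hspa5, Hsp90b1, Derl3, Creld2, Alg12, Canx, Dnajc3, Pdia6, Syvn1, Atf4, Xbp1, Ddit3, Foxa1, Psca, Upk2, Per2, Nr1d2, Tef, Cry1, Arntl, Clock, and the motifs. A few genes are not reported here. Read alignment was not repeated. Figures were drawn with matplotlib 3.10.9.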

Additional observations from a re-analysis of the deposited data

Results flagged for a closer look

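In 462 sets of 5 WT libraries, of named genes, marker lists and shares of counts, the gap of the highest or lowest library to its neighbour was set against the range of its group. Chance marks about 1 set in 20, and 43 were marked. Values of genes are normalised counts. Testosterone library 5 stood above the others for Psca (627), Upk2 (213), Upk3b (342), Krt4 (974), Lyz2 (1209), C1qa (372), C1qc (243), Ugdh (352) and Idh1 (1058). Vehicle library 2 stood above for Tax1bp1 (36671), Prdx6 (35621), Idh1 (2789), Mthfd2 (76.8), Upk2 (17.6), Cry1 (335) and Clock (1602). Vehicle library 5 stood above for the skeletal muscle genes Tnnt3 (1827), Ckm (1837) and Acta1 (3400) and for Hbb-bs (1901) and Npc2 (3861). Vehicle library 1 stood above for Dbp (1696) and 5430419D17Rik (34420) and below for Egfr (478) and Cldn10 (1516), vehicle library 3 above for Timp4 (503) and Mmp12 (439.9), and vehicle library 4 above for Gcnt2 (894), Igha (3482) and Hsp90b1 (9967). Testosterone library 2 stood above for Clu (5238), Mme (28276), Fxyd3 (3028) and Mpi (1074), library 3 for Cadps (14.0) and Maml2 (154), and library 4 for Ighm (8563), while library 4 stood below for Ctsl (3359).

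Among mean log2(normalised count + 1) values of marker lists, the lowest vehicle library for proximal and castration-resistant luminal cells was marked at 8.54, the highest testosterone library for mast cells at 3.01 and for urothelium at 7.58, and the highest vehicle and testosterone libraries for seminal vesicle at 1.08 and 1.86, near 0 counts. No cause was tested.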

How the results depend on the processing

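The count of 5863 called genes was 5165 to 6061 under DESeq2, limma-voom, other filters, RLE and upper-quartile scaling and the WT libraries alone, 5185 to 5954 when each WT library was left out in turn, and 5375 without vehicle library 2 and testosterone library 2. Under total-count scaling it was 10002, with 1052 rises and 8950 falls. The interaction count of 0 was 28 by DESeq2, 2 with a filter at 50 normalised counts, 2 with no filter, 2 under total-count scaling, 1 without vehicle library 2 and testosterone library 2, and 0 to 1 when each WT library was left out; no ARNoC library was left out. The difference in mitochondrial share ranged from -0.365 to -0.240 with a library left out. Over 204 named genes, 3890 of the alternative values kept direction and call, 96 lost the call, 43 gained one and 33 changed sign. Under total-count scaling the sign changed for Hsd17b10 (-0.00), Notch3 (-0.02), Tcp1 (-0.16), Psmd1 (-0.05), Psmb4 (-0.01), Prpf8 (-0.23), Itga6 (-0.16), Tagln (-0.02), Upk1a (-0.10), Atf4 (-0.02), Xbp1 (-0.08), Foxa1 (-0.34) and Arntl (-0.08). With limma-voom it changed for Gsn (0.09), Tnnt3 (1.12), Ckm (2.53) and Uchl1 (0.16), and without vehicle library 2 and testosterone library 2 for Acta1 (-0.07) and Clock (0.03). With 1 library left out, values ranged across 0 for Eef2 (-0.10 to 0.00), Cldn10 (-0.12 to 0.03), Gsn (-0.23 to 0.33), Tnnt3 (-1.93 to 2.22), Ckm (-1.75 to 2.20), Uchl1 (-0.48 to 0.18) and Clock (-0.18 to 0.09). The cause of these changes was not tested. No paired analysis was possible because the library numbers differ between groups and the labels give no shared replicate number.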
